A study of Mus musculus with 16 samples.

Results

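RNA was recovered from the cytoplasm of differentiating muscle cells with an antibody to MYF5 and compared, across genes, with RNA recovered by control IgG. MYF5 is known as a transcription factor with a basic helix-loop-helix domain that commits cells to muscle. The cells were C2C12, an established mouse myoblast line, switched as subconfluent cultures from growth medium (GM, with 10% fetal bovine serum) to differentiation medium (DM, with 2% horse serum). Cytoplasmic extracts were incubated with antibody-coated beads, and the RNA on the beads was primed with oligo-dT, amplified, labelled with biotin and hybridised to Illumina mouse bead arrays. The groups were DM with anti-MYF5 (4 arrays) and DM with control IgG (4 arrays), 8 of the 16 arrays of the series. The other 8 arrays, GM with anti-MYF5 and GM with control IgG (4 each), were used for the shared estimate of spread and for the difference between media. The labels name no genetic change in any group and no length of time in DM, and they do not say whether replicates were separate cultures, so p-values measure only the spread between these samples. None of the 16 arrays is labelled as RNA from before precipitation, so recovery could not be set against the level in the extract.

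A probe entered when its signal was detected (detection p under 0.05 against the array's own negative control beads) on at least 4 of the 8 DM arrays. This kept 13030 of the 25697 probes, which stood for 8927 named genes, each gene taken at its brightest probe. Levels are log2 signals after background correction and quantile normalization. A log2 fold change is the mean of the MYF5 arrays minus the mean of the IgG arrays. A gene was called higher or lower at a limma adjusted p (Benjamini-Hochberg over all probes tested) under 0.05. Because normalization gives all arrays the same distribution, a change is measured against the rest of the RNA recovered.

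In immunoprecipitation of RNA-protein complexes, an antibody pulls down its protein with the RNA attached to it, directly or through partners. Control IgG beads recover RNA that sticks without the protein, so the ratio of the 2 recoveries is the measure of enrichment. When C2C12 cells lose serum, they leave the cell cycle, switch on myogenin and the genes of the contractile apparatus, and fuse into myotubes. The series title names Ccnd1, the mRNA of cyclin D1, which carries cells through G1 and is a brake on muscle differentiation while it is high.

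Arrays of the same DM group correlated across the tested probes at r of 0.989 to 0.996, and MYF5 with IgG arrays at 0.948 to 0.969. Mean signal was 430 ± 62.5 with anti-MYF5 and 463 ± 35.4 with IgG, and 50.4% ± 0.468 and 50.2% ± 0.582 of the probes were detected (SD, n = 4 each). MYF5 replicate 4 stood apart from its group. Its mean correlation with the IgG arrays was 0.965, against 0.952 to 0.956 for the other MYF5 arrays, and in 46 of the 68 gene lists with at least 10 tested genes its median lay nearest to IgG. The number of called genes without it is given with the first result. The Actb probes, which are described with Ccnd1, also separated the groups. All 13 myotube markers on the arrays were detected on all 8 DM arrays. Of the markers of other cell types, 0 of 8 for blood, 2 of 8 for endothelium (Kdr and Tek), 2 of 9 for fat (Pparg and Lpl), 4 of 10 for bone and cartilage, and 2 of 11 for neurons, liver or epithelium were detected on all 8. The fat markers Adipoq, Plin1, Cidec, Fabp4 and Retn were detected on none.

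Anti-MYF5 and IgG recovered different RNA populations, with about as many genes higher as lower. Of the 8927 genes, 2625 were higher with anti-MYF5 (29.4%) and 2520 were lower (28.2%). All 4 MYF5 values lay above all 4 IgG values for 2487 genes (27.9%) and below them for 2396 (26.8%). The changes were mostly small: the median absolute log2 fold change was 0.41 (median SE 0.13), and 438 called genes were at least 2-fold higher (4.91%) against 555 at least 2-fold lower (6.22%). Without MYF5 replicate 4, 2680 genes were higher and 2457 lower. With median scaling in place of quantile normalization, 1661 were higher and 2414 lower.

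The median change differed little with brightness. From the dimmest to the brightest of 5 equal groups of genes, the median log2 fold change was 0.01, 0.00, 0.02, 0.04 and 0.09. The share called higher was 13.3% in the dimmest group and 39.3% in the brightest, and the share called lower was 15.2% and 33.8%. Nearly all tested genes, 8899, are annotated as protein coding. Among the 5 long noncoding RNAs, Gm5113 (0.54) and 4632404H12Rik (0.64) were higher, Xist was lower (-0.42), and Tug1 (0.00) and B230217C12Rik (0.30) did not pass the test. Rnu6, annotated as a spliceosomal snRNA, was higher (0.99), and the snoRNA Snora65 did not pass (-0.32). Of 19 transcribed pseudogenes 4 were higher and 7 lower (median -0.17). The long noncoding, snRNA and snoRNA genes were named after their values were seen.

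All 3 probes of Ccnd1 gave higher values with anti-MYF5. Its brightest, ILMN_1221503, had log2 signals of 10.73, 10.91, 10.93 and 10.64 with anti-MYF5, against 10.18, 10.43, 10.50 and 10.08 with IgG. The groups did not overlap, and the log2 fold change was 0.50 (SE 0.12, limma adjusted p = 0.0017), which is 1.42-fold. At ILMN_2601471 the values were 10.48, 10.46, 10.57 and 10.39 against 9.90, 10.04, 10.16 and 9.98, again without overlap (0.46, SE 0.11, limma adjusted p = 0.0011). The dimmest probe, ILMN_2669793, had 7.75, 7.93, 7.98 and 7.17 with anti-MYF5 against 7.29, 7.44, 7.21 and 5.91 with IgG. Here replicate 4 was the lowest array in both groups and MYF5 replicate 4 lay below 3 IgG arrays (0.74, SE 0.25, limma adjusted p = 0.016). All 3 calls ended with median scaling (0.42, 0.35 and 0.63, with limma adjusted p = 0.06, 0.12 and 0.054). The call at ILMN_2669793 also ended without IgG replicate 4 (0.39, limma adjusted p = 0.079), without MYF5 replicate 3 (0.65, limma adjusted p = 0.053), and once the Actb probe gap entered the fit (0.23, limma adjusted p = 0.53). The change in GM was as large (0.55, 0.44 and 0.76), and the DM minus GM difference was between -0.04 and 0.02 with limma adjusted p from 0.92 to 0.98.

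The muscle determination and differentiation factors differed among themselves. Myf5 itself was measured by 1 probe, which was detected on 0 of the 8 DM arrays (signals of 58.0 to 62.6 with anti-MYF5 and 54.2 to 62.1 with IgG) and was not tested. Myod1, the related determination factor, had log2 signals of 9.34, 9.74, 9.62 and 9.48 with anti-MYF5, against 8.81, 9.0, 8.72 and 8.97 with IgG. It was higher without overlap (0.67, SE 0.13, limma adjusted p = 1.5e-04). Myog, the mRNA of myogenin, overlapped between the groups at both probes. Its brighter probe had 11.16, 11.28, 11.41 and 11.24 with anti-MYF5 and 11.26, 11.30, 10.99 and 10.82 with IgG (0.18, SE 0.34, limma adjusted p = 0.69).

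Gapdh, a glycolytic enzyme often used as a loading standard, was lower at both probes. ILMN_1377924 had 12.27, 12.03, 12.10 and 12.68 with anti-MYF5, against 13.65, 13.66, 13.65 and 13.70 with IgG (-1.39, SE 0.11, limma adjusted p = 5.2e-09). The IgG arrays lay close together, and MYF5 replicate 4 was the highest of its group. The other probe, ILMN_2588056, differed by -1.09 (SE 0.11). Gapdh is read here as one transcript among the rest, and processed pseudogene copies may share its probes.

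The 5 probes of Actb, which encodes beta-actin, disagreed in direction. ILMN_2698799 was lower with anti-MYF5 (12.67, 12.59, 12.56 and 13.05, against 13.51, 13.41, 13.59 and 13.45 with IgG), while ILMN_2588055 was higher (9.62, 10.37, 10.81 and 9.62, against 8.33, 9.56, 9.33 and 7.83). In the fit they differed by -0.78 (SE 0.10) and 1.34 (SE 0.53). ILMN_2846865 was higher by 1.42, ILMN_2617433 was lower (-0.52), and ILMN_1377923 did not pass the test (-0.15, limma adjusted p = 0.69). Both higher probes lost their calls in 4 of the 8 fits that left out 1 array (MYF5 replicates 2 and 3, IgG replicates 1 and 4; limma adjusted p = 0.063 to 0.13). ILMN_2617433 lost its call in 5 of them (MYF5 replicates 1, 2 and 3, IgG replicates 3 and 4) and was at -0.82 without MYF5 replicate 4. The gap between the first and second of these probes was 3.05, 2.22, 1.75 and 3.42 log2 units with anti-MYF5, against 5.17, 3.85, 4.27 and 5.62 with IgG. It was narrower with anti-MYF5 without overlap (difference -2.12, exact two-sided permutation p = 0.0286, the smallest that 4 against 4 can give), and its part in the results that follow was not tested beyond its use as a covariate. With the gap as a covariate, both higher probes turned (-0.75 and -0.60), ILMN_2617433 lost its call (limma adjusted p = 0.079) and ILMN_1377923 gained one (-1.13, limma adjusted p = 3.4e-05). The gap is itself ILMN_2698799 minus ILMN_2588055, so with it in the fit these 2 probes must have the same log2 fold change (-0.75). Over all genes with several tested probes, 43 of 2416 had calls in both directions.

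**Figure D1:**
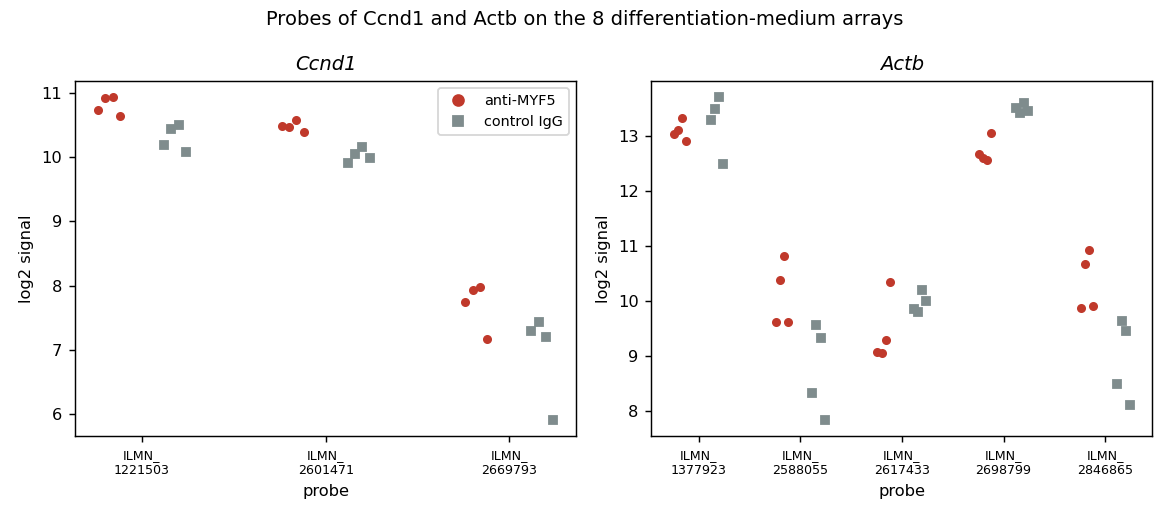
Log2 signal of each probe of Ccnd1 (left) and Actb (right) on the 8 DM arrays, with anti-MYF5 in red and control IgG in grey, 1 point per array. The Ccnd1 probes shift the same way, whereas ILMN_2588055 and ILMN_2846865 of Actb are higher with anti-MYF5 and ILMN_2698799 is lower.

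Among the 15 genes with the largest increases, Arl2bp, which encodes a binding partner of the small GTPase ARL2, had the largest, with 12.82, 13.07, 13.18 and 13 against 10.79, 11.14, 10.84 and 10.57 with IgG (2.18, SE 0.15, limma adjusted p = 3.6e-09, 4.53-fold). Plau, the urokinase-type plasminogen activator, had 9.77, 9.81, 9.88 and 9.61 against 8.02, 7.88, 7.95 and 7.48 with IgG (1.93, SE 0.16). Both genes were more than 1 log2 unit above IgG on every MYF5 array. Ccn2, a matrix-associated growth regulator also called connective tissue growth factor, was higher by 1.90 (SE 0.26). Hbegf, a heparin-binding ligand of the EGF receptor, was higher by 1.76 (SE 0.17), and Frs3, a docking protein of FGF receptors, by 1.92 (SE 0.20).

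The rest of the 15 highest genes were Tmem80 (1.90), the deubiquitinase gene Usp12 (1.86), Mzt1 of the gamma-tubulin complex (1.85), Gatad1 (1.83), the homeobox gene Hoxa9 (1.78), the inducible nuclear IkappaB protein gene Nfkbiz (1.77), Nudt19 (1.76), Mreg (1.75), Tmem128 (1.73) and Nrn1, which encodes neuritin (1.71). Values of Frs3 show MYF5 replicate 4 closest to IgG: 8.65, 8.87, 8.48 and 7.80 with anti-MYF5, against 6.65, 6.74, 6.23 and 6.50 with IgG. Usp12 had 7.96, 8.26, 8.41 and 8.03 against 6.46, 6.90, 6.35 and 5.50, where IgG replicate 4 was the lowest.

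The 15 lowest genes held 4 components of mitochondrial energy metabolism. Atp5e, the epsilon subunit of ATP synthase, had 5.89, 6.11, 6.13 and 6.62 with anti-MYF5, against 7.86, 8.26, 8.01 and 8.72 with IgG (-2.02, SE 0.18, limma adjusted p = 2.1e-08). Cox8b (-1.75), a muscle form of a cytochrome c oxidase subunit, Atp5o (-1.64) of ATP synthase, and Etfb (-1.74), which passes electrons from fatty acid oxidation, were in the same group. Eno1b (-1.73), a near copy of the enolase gene Eno1 whose probe may not tell the pair apart, is glycolytic. Myl2, a regulatory myosin light chain of slow and cardiac muscle, had 8.70, 8.66, 8.68 and 9.41 against 10.82, 10.70, 10.89 and 10.79 with IgG (-1.94, SE 0.14). Here MYF5 replicate 4 was the highest of its group and still more than 1 log2 unit below every IgG array.

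Also among the lowest were the H2A histone genes H2ac22 (-1.85) and H2ac10 (-1.72), which share most of their sequence with other H2A genes, and Myh6 (-1.69), an alpha cardiac myosin heavy chain. The others were 2310039H08Rik (-1.79), Chmp2a (-1.75) of the ESCRT-III membrane-scission complex, Bloc1s1 (-1.73), the calcium-binding protein gene S100a13 (-1.69), Emc9 (-1.67) of the endoplasmic reticulum membrane complex, and the actin-oxidising enzyme gene Mical1 (-1.63). All 30 of these genes were chosen for the size of their change.

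**Figure D2:**
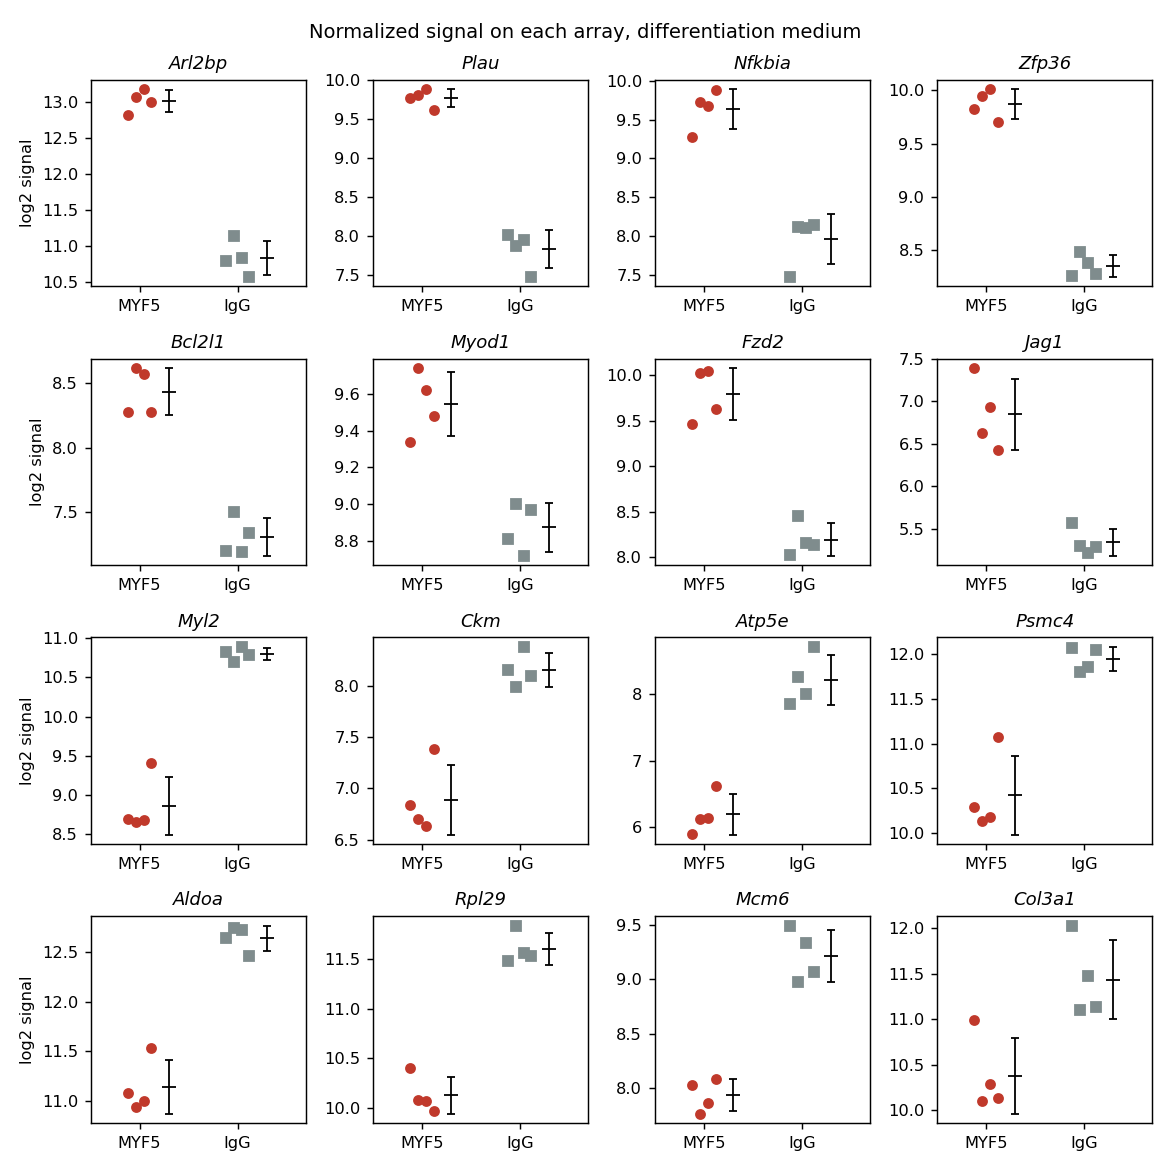
Log2 signal of 16 genes on each DM array (points), with anti-MYF5 at the left and control IgG at the right of each panel and the mean with its SD (n = 4) beside the points. The upper 8 genes are higher and the lower 8 lower with anti-MYF5, with no overlap between the groups, and anti-MYF5 replicate 4 (the rightmost red point) is the nearest of its group to IgG for Myl2, Ckm, Psmc4 and Aldoa, among others.

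Gene lists by function were then counted against the background of 29.4% of genes higher and 28.2% lower. List counts under median scaling stand against 1661 of the 8927 genes higher and 2414 lower in that setting. List counts with the Actb gap as a covariate stand against 2364 higher and 2304 lower. The median log2 fold change over all genes was 0.02. The muscle program split between its regulators and its products. Of 16 tested myogenic transcription regulators, 8 were higher and 0 lower, with a median of 0.33. Msc (musculin, a repressor of myogenic factors) was higher by 0.81, Id2 (an inhibitor of basic helix-loop-helix factors) by 0.79, Tcf12 (a dimer partner of MyoD) by 0.77 and the homeobox gene Six4 by 0.73. The list's median on the MYF5 arrays lay 0.41, 0.44, 0.36 and 0.43 above the IgG mean, with the IgG arrays between -0.05 and 0.08, and with median scaling 5 were higher.

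Transcripts of the contractile apparatus were lower with anti-MYF5. In the contractile protein list 0 of 20 were higher and 16 lower (median -1.06), and of 22 genes of the Z-disc, M-band and titin filament 1 was higher and 17 lower (-0.85). The contractile list's median on the MYF5 arrays was -1.0, -1.13, -1.32 and -0.67, with MYF5 replicate 4 nearest to IgG, and without that array the counts were the same (median -1.22). Tnnt3, fast troponin T, had 10.65, 10.83, 10.67 and 11.22 with anti-MYF5, against 12.21, 12.49, 12.44 and 12.34 with IgG (-1.53, SE 0.14). Myh4, a fast myosin heavy chain, had 11.18, 10.69, 10.37 and 11.34 against 12.73, 12.28, 12.40 and 12.55 (-1.59, SE 0.16). No MYF5 value of either gene reached an IgG value.

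Tpm2, beta-tropomyosin, was lower by 1.44 on the log2 scale. On the Z-disc, the genes of the RING protein Trim54 (-1.54), alpha-actinin 2 (Actn2, -1.50), Xirp1 (-1.26) and the M-band protein Myom1 (-1.23) were lower, and Smyd1, a muscle methyltransferase that acts on myosin folding, was the member that was higher (0.46). Other muscle differentiation genes, with enzymes, chaperones and oxygen carriers of the fibre, had 22 of 26 lower and 1 higher (median -1.02). They included Hspb3 (-1.61), the muscle oxidase subunit gene Cox6a2 (-1.60) and Itgb1bp2, which encodes melusin (-1.56), whereas Sgcb, beta-sarcoglycan, was higher (0.79). Ckm, muscle creatine kinase, had 6.84, 6.70, 6.63 and 7.38 with anti-MYF5, against 8.15, 7.99, 8.38 and 8.10 with IgG (-1.27, SE 0.14).

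Calcium handling was mixed, and the neuromuscular junction had few calls. Of 16 genes for calcium release and reuptake, 8 were lower and 2 higher (median -0.40): the calcium buffer parvalbumin (Pvalb, -1.51), the reticulum protein Hrc (-1.47) and the channel subunits Cacnb1 (-1.02) and Cacng1 (-1.0) were lower, and junctophilin 1 (Jph1, 0.72) and the pump SERCA2 (Atp2a2, 0.64) were higher. Of 11 acetylcholine receptor and junction genes 1 was higher, the agrin receptor Lrp4 (1.00), and 2 were lower, Chrng (-0.83) and Rapsn (-0.43). The summed raw signal of the 13 myotube markers was 108143 to 151710 with anti-MYF5 and 178168 to 202283 with IgG. Such a sum is weighted toward the brightest probes. Taken gene by gene, 6 of the 13 were lower, 0 higher and 7 did not pass the test (median -0.60). With the Actb gap as a covariate 9 of these markers were lower (median -1.08), and with median scaling 8 (median -0.78). These signals are of RNA recovered on the beads, and both groups were drawn from cultures labelled the same. Fewer cells of a type and less RNA per cell cannot be told apart in such bulk extracts, and neither was measured.

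Cell cycle RNAs went both ways. Of 24 tested G1 cyclins, kinases, inhibitors and pocket protein genes, 14 were higher and 0 lower (median 0.38). E2f5 had 10.11, 9.97, 9.91 and 10.04 with anti-MYF5, against 8.85, 8.81, 9.13 and 9.04 with IgG (1.05, SE 0.16). With no overlap, this E2F factor, which recruits pocket proteins, led the list. Tfdp1, the dimer partner of the E2Fs, was higher by 1.00, the repressor E2f6 by 0.90 and the phosphatase gene Cdc25a by 0.89.

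Genes of S phase leaned lower. In the DNA replication list 20 of 39 were lower and 5 higher (median -0.42). Mcm6, a subunit of the replicative helicase, had 8.03, 7.77, 7.87 and 8.09 with anti-MYF5, against 9.49, 8.97, 9.33 and 9.07 with IgG (-1.28, SE 0.12). Lig1 (-1.16), Gins4 (-1.09) and thymidylate synthase (Tyms, -1.04) were lower, while Orc6 (0.84) and Rpa3 (0.66) were higher, and with the Actb gap as a covariate 13 of the list were lower. With median scaling, 2 of the replication list were higher. Histone genes had 22 of 40 lower and 3 higher (median -0.64). The lowest after the pair given above were H2ac24 (-1.56) and H2ac20 (-1.54), and the variant gene H2ax (0.83) and H2bc18 (0.64) were higher. Replication-dependent histone mRNAs end in a stem-loop and mostly lack the poly(A) tail that oligo-dT priming uses.

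Mitosis genes had 11 of 23 lower and 3 higher (median -0.34). Incenp (-1.17), Tpx2 (-0.80), Cdca8 (-0.60) and Nusap1 (-0.57), which act on the spindle and midzone, were lower. Cdk1, the kinase that starts mitosis, went the other way, with 9.18, 9.14, 8.87 and 9.41 against 7.98, 7.71, 7.88 and 8.41 with IgG (1.15, SE 0.16), and so did the centromeric histone gene Cenpa (0.58).

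Immediate early and stress response genes were higher, at 20 of 30 with 2 lower (median 0.58). On the MYF5 arrays the list's median lay 0.62, 0.68, 0.54 and 0.39 above the IgG mean. Nfkbia, which encodes the inhibitor IkappaB-alpha, had 9.28, 9.72, 9.67 and 9.88 with anti-MYF5, against 7.47, 8.11, 8.10 and 8.14 with IgG (1.68, SE 0.18). Zfp36, tristetraprolin, which binds AU-rich elements and speeds mRNA decay, had 9.82, 9.95, 10.01 and 9.70 against 8.26, 8.48, 8.38 and 8.28 (1.52, SE 0.11). Both were separated from IgG by more than 1 log2 unit on every array. Ddit4, an inhibitor of mTORC1 signalling, was higher by 1.59, and the genes that were lower were Ddit3 (-0.63), the stress factor CHOP, and Fosl1 (-0.48).

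Survival regulators of the BCL2 family moved with them: 14 of 18 were higher and 2 lower (median 0.64). These included genes on both sides of cell death. The death-promoting Bcl2l11 (BIM, 1.34) and Pmaip1 (NOXA, 1.01) were higher, as was the protective Bcl2l1 (BCL-XL), with 8.28, 8.62, 8.57 and 8.28 against 7.20, 7.50, 7.19 and 7.34 with IgG (1.13, SE 0.13). Bcl2l13 was higher by 0.94, and the lower members were Bad (-0.66) and Bnip1 (-0.43).

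Chaperones were lower in the cytosol and mixed in the endoplasmic reticulum. Of 21 heat shock and cytosolic chaperone genes 11 were lower and 1 higher (median -0.35), with Hspa4 (-1.37), Hspb1 (-1.18), Hsph1 (-0.92) and Hsp90aa1 (-0.91) lowest and the co-chaperone Bag2 higher (0.35). With the Actb gap as a covariate, 7 of this list were lower. In the list of endoplasmic reticulum chaperones and the unfolded protein response, 6 of 19 were higher and 3 lower (median 0.02, and 3 and 3 with median scaling). The stress kinase PERK (Eif2ak3, 1.25), the ubiquitin ligase Syvn1 (1.23), Hyou1 (0.87) and Dnajc3 (0.70) were higher, and Hsp90b1 (-0.99) and calreticulin (Calr, -0.81) were lower. Chaperonin and prefoldin genes had 7 of 12 lower and 2 higher (median -0.44), led by Cct3 (-1.23), Cct5 (-0.90), Cct7 (-0.86) and Cct6a (-0.73) of the ring complex, whereas the prefoldin genes Pfdn2 (0.69) and Pfdn1 (0.29) were higher. The chaperonin and prefoldin counts were 4 lower and 1 higher with the Actb gap as a covariate (median -0.14).

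Receptors and effectors of signalling leaned higher. Wnt receptors and effectors had 13 of 22 higher and 2 lower (median 0.39). Fzd2, a Frizzled receptor for Wnt ligands, had 9.47, 10.02, 10.05 and 9.63 with anti-MYF5, against 8.03, 8.45, 8.16 and 8.14 with IgG (1.60, SE 0.17). The nuclear effector Tcf7l2 (1.24), Fzd6 (1.03) and Dkk3 (0.88) were higher, and the ligand Wnt10a (-0.40) and Apc (-0.36) were lower. In TGF-beta, BMP and activin signalling 15 of 27 were higher and 1 lower (median 0.42, and 9 and 1 with median scaling). The co-receptor Tgfbr3 was higher by 1.39, the activin and myostatin antagonist follistatin (Fst) by 1.32, the SMAD repressor Skil by 1.08 and the receptor Tgfbr1 by 1.05, while the latent-TGF-beta binding protein Ltbp3 was lower (-0.74). Fst had 9.63, 10.18, 9.97 and 10.46 against 8.68, 8.73, 8.61 and 8.94 with IgG.

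The Notch pathway had 11 of 17 higher and 0 lower (median 0.42). The ligands Jag1 (1.51) and Jag2 (1.11), the secretase subunit nicastrin (Ncstn, 1.14) and the Fringe enzyme Rfng (0.99) led it. With the Actb gap as a covariate 6 were higher and 1 lower (median 0.16), and with median scaling 7 and 0. MAP kinase cascade genes had 16 of 24 higher and 5 lower (median 0.48), with Map3k8 (1.20), Mapkapk2 (1.01), Map2k4 (0.93) and Map3k3 (0.80) higher and Map4k4 (-0.74) and the muscle p38 kinase Mapk12 (-0.68) lower. Under median scaling 9 MAP kinase cascade genes were higher. Protein phosphatase subunits (15 of 46 higher, 9 lower, median 0.15; 9 and 10 with median scaling) and heterotrimeric G proteins and RGS (11 of 32 higher, 5 lower, median 0.13) had smaller medians. Among them Ppp6r2 (1.40), Ppp1r2 (1.36) and Gna12 (1.42) were higher and Ppp1r27 (-1.24), Gng13 (-1.20) and Gnb2 (-0.95) lower.

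Lists of zinc finger proteins and transcription factors had few genes lower. The zinc finger (Zfp) list, which also holds RNA-binding members such as Zfp36, had 58 of 181 higher and 12 lower (median 0.15). With median scaling it had 33 and 13. Its share higher, 32%, was near the 29.4% of all genes, and its share lower was 6.63% against 28.2%. Zfp608 (1.45), Zfp362 (1.25) and Zfp365 (1.09) were higher, and Zfp207 (-1.17) and Zfp771 (-0.92) lower. Of the Klf and Sp factors 8 of 14 were higher and 0 lower (median 0.50), with Klf16 (0.90), Sp6 (0.81), Klf4 (0.79) and Klf9 (0.78) leading, and with median scaling 4 were higher and 1 lower. Hox proteins had 6 of 13 higher and 1 lower (0.23), where Hoxa5 (1.36), Hoxc6 (0.69) and Hoxb4 (0.43) were higher and Hoxc9 (-0.92) lower. In the Sox and forkhead factors 8 of 22 were higher and 1 lower (0.23), with Foxq1 at 1.47, Sox8 at 0.86, Foxo1 and Foxj2 at 0.85 each, and Foxs1 at -1.04.

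Several large families of membrane proteins had more genes higher than lower. Solute carriers, which move nutrients and ions across membranes, had 79 of 165 higher and 16 lower (median 0.30). With median scaling 51 solute carriers were higher and 13 lower. The thiamine transporter gene Slc19a2 had 9.55, 9.20, 9.20 and 8.86 with anti-MYF5, against 7.57, 7.44, 7.70 and 7.53 with IgG (1.64, SE 0.18). Slc48a1, a heme transporter, was higher by 1.54 and the Slc35 family carriers Slc35e1 and Slc35b3 by 1.50 each, while Slc3a2 (-0.94), the heavy chain of amino acid exchangers, and the sugar transporter Slc50a1 (-0.92) were lower. TMEM proteins had 63 of 119 higher and 16 lower (median 0.37). After Tmem80 and Tmem128, Tmem38b (1.71) and Tmem189 (1.63) were highest, and Tmem205 (-1.40) and Tmem176b (-1.20) were lower.

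Palmitoyltransferases, membrane enzymes that attach palmitate to proteins, had 12 of 15 higher and 0 lower (median 0.62). Zdhhc13 had 9.94, 9.52, 9.54 and 9.56 with anti-MYF5, against 8.48, 8.05, 8.31 and 8.18 with IgG (1.39, SE 0.14). Zdhhc17 (0.95), Zdhhc24 (0.90) and Zdhhc7 (0.80) followed. The list's medians on the 4 MYF5 arrays lay 0.57 to 0.68 above the IgG mean.

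Vesicle fusion and coat genes differed from each other. SNARE proteins, which fuse vesicles with their targets, had 19 of 33 higher and 8 lower (median 0.40). Stx3 was higher by 1.46, Ykt6 by 1.23, Sec22c by 1.14 and Bet1l by 0.92. Use1, with 10.38, 10.49, 10.42 and 10.89 with anti-MYF5 against 11.79, 12.03, 12.12 and 12.15 with IgG (-1.48, SE 0.17), and Vamp8 (-1.36) were lower by as much. Rab GTPases, which mark membrane compartments, had 22 of 44 higher and 8 lower (median 0.29), with Rab31 (1.34), Rab28 (1.20), Rab12 (1.18) and Rab33b (1.13) higher and Rab13 (-1.19) and Rab9 (-0.66) lower. With median scaling, 12 SNARE proteins and 12 Rab GTPases were higher and 8 of each lower, and with the Actb gap 17 Rab GTPases were higher and 4 lower. Of 11 Arf and Arl GTPases 4 were higher and 2 lower (median 0.27, and 1 and 2 with median scaling), among them Arf5 (0.72) and Arf1 (0.56) against Arl2 (-1.10) and Arl3 (-0.99).

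The COPI and COPII coats, by contrast, had 8 of 14 lower and 1 higher (median -0.37): Cope (-1.16), Copa (-0.98), Copb2 (-0.88) and Sec13 (-0.81) were lower and the COPII GTPase gene Sar1a was higher (0.64). With the Actb gap in the fit, Sar1a differed by -0.066 (limma adjusted p = 0.71). Lysosomal enzymes and membrane proteins had 16 of 33 lower and 5 higher (median -0.33, and 12 and 2 with median scaling), with Naglu (-1.10), Ctsz (-1.02), Glb1 (-0.96) and Ctsb (-0.88) lower and Lamp2 (0.99) and Ctsl (0.92) higher. Lamp2 is one of the genes whose probes were called in both directions. Among 19 V-ATPase genes 7 were lower and 3 higher (-0.11, and 7 and 0 with median scaling). The list of the translocon, signal peptidase and oligosaccharyl transferase was split at 12 of 29 higher and 9 lower (-0.02, and 7 and 9 with median scaling), with Ostc (1.28) and Ssr3 (1.19) higher and Ssr4 (-1.11) and Rpn2 (-0.89) lower.

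Within the ubiquitin system the proteasome and the enzymes ahead of it differed. Of 42 proteasome genes 32 were lower and 1 higher (median -0.77). Psmc4, an ATPase of the regulatory particle, had 10.29, 10.14, 10.18 and 11.07 with anti-MYF5, against 12.07, 11.80, 11.86 and 12.05 with IgG (-1.52, SE 0.15). The activator gene Psme1 (-1.57), Psmc5 (-1.50) and Psmc3 (-1.40) were lower, and the assembly chaperone gene Psmd9 was higher (0.44). Ubiquitin-conjugating enzymes had 11 of 24 higher and 1 lower (median 0.28), led by Ube2f (1.26), Ube2g2 (1.14), Ube2e3 (1.11) and Ube2g1 (1.06), with Ube2o lower (-0.59). With median scaling 7 ubiquitin-conjugating enzymes were higher.

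Ligase families lay between. RING finger proteins (Rnf) had 21 of 45 higher and 8 lower (median 0.29, and 13 and 7 with median scaling), F-box proteins 15 of 39 and 8 (0.13, and 7 and 7), and kelch-like proteins 9 of 28 and 5 (0.13). Rnf170 (1.29), Fbxl14 (1.45) and Klhdc1 (1.03) headed these lists, and Rnf113a1 (-0.93), Fbxo6 (-0.72) and Klhdc4 (-0.93) were lowest. Ubiquitin-specific proteases, which remove ubiquitin, had 8 of 30 higher and 8 lower (median 0.00; 4 and 6 with median scaling, 8 and 5 with the Actb gap), from Usp12 and Usp21 (1.58) to Usp19 (-1.38) and Usp5 (-0.90).

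RNAs for energy production were lower across the respiratory chain. Complex I had 33 of 39 genes lower and 1 higher (median -0.96), and complexes II to V had 32 of 40 lower and 1 higher (median -1.0). The complex I median on the MYF5 arrays was -1.0, -0.95, -1.09 and -0.72, with the IgG arrays between -0.05 and 0.08. Ndufv3 (-1.52), Ndufb2 (-1.51), Ndufb7 (-1.39) and Ndufa3 (-1.37) were lowest, and Ndufa6 was higher (0.47). Cox7c, another subunit of cytochrome c oxidase, stood out from its complex with 13.31, 13.55, 13.55 and 13.68 against 12.17, 12.34, 12.31 and 12.57 with IgG (1.18, SE 0.11), a gap without overlap in the direction opposite to Cox8b.

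Mitochondrial ribosomal proteins had 51 of 69 lower and 4 higher (median -0.70; 41 and 4, and -0.57, with the Actb gap as a covariate). Mrpl54 (-1.61), Mrpl23 (-1.56), Mrpl58 (-1.44) and Mrpl52 (-1.44) were lower, and Mrpl57 (1.32) and Mrpl51 (0.72) higher. Mitochondrial import genes did not lean: 5 of 18 were lower and 4 higher (median -0.04), with Timm50 (-1.0) and Tomm6 (-0.96) at one end and Tomm7 at the other. Tomm7 had 11.01, 11.33, 11.38 and 11.27 with anti-MYF5, against 9.80, 10.08, 9.84 and 9.75 with IgG (1.38, SE 0.13).

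Glycolysis had 12 of 16 genes lower and 0 higher (median -0.79). Aldoa, aldolase, had 11.08, 10.94, 11 and 11.53 against 12.64, 12.74, 12.72 and 12.46 with IgG (-1.51, SE 0.15), and the muscle isoforms Eno3 (-1.49) and Pgam2 (-1.40) and the aldolase gene Aldoc (-1.15) were lower as well. The citrate cycle and pyruvate dehydrogenase list had 9 of 16 lower and 1 higher (-0.34), with Idh3g (-1.38), Mdh2 (-1.12), Idh2 (-1.09) and Mdh1 (-1.06) lower and citrate synthase (Cs, 0.41) higher. In fatty acid oxidation 9 of 17 were lower and 1 higher (-0.33): after Etfb came Eci1 (-1.0), Acadvl (-0.99) and Acaa2 (-0.86), and the muscle carnitine palmitoyltransferase Cpt1b was higher (0.50).

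Cholesterol synthesis was divided, with 7 of 18 higher and 6 lower (median 0.08, and 5 and 6 with median scaling). The regulators Insig2 (1.28) and Insig1 (1.17), which hold back the sterol pathway, and the enzyme genes Hsd17b7 (1.15) and Msmo1 (0.77) were higher, while Fdps (-0.99) and Ebp (-0.93) were lower.

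RNAs of the translation machinery were lower, but not uniformly. Cytosolic ribosomal proteins had 35 of 58 lower and 9 higher (median -0.52), although near-identical processed copies make single members uncertain. Rpl29 had 10.40, 10.08, 10.07 and 9.97 with anti-MYF5, against 11.48, 11.84, 11.56 and 11.53 with IgG (-1.47, SE 0.12), followed by Rpl28 (-1.40), Rpl19 (-1.34) and Rpl35 (-1.33), and Rpl22 (0.80) and Rps15a (0.65) were higher. With median scaling 36 cytosolic ribosomal proteins were lower and 3 higher. Translation initiation and elongation factors had 26 of 48 lower and 13 higher (median -0.41), and 26 and 4 with median scaling. Eif6 (-1.36), Eif3a (-1.30), Eif3k (-1.29) and Eef1d (-1.29) were lower, and 2 regulators of the cap complex, Eif4ebp2 (1.29) and Eif4e3 (1.28), were higher.

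Aminoacyl-tRNA synthetases, which charge tRNAs, had 21 of 28 lower and 0 higher (median -0.65). Rars (-1.20), Aars (-1.16), the scaffold gene Aimp2 (-1.11) and Kars (-1.03) were lowest.

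Genes that process RNA were split by kind. DEAD and DEAH box helicases had 21 of 36 lower and 3 higher (median -0.42), with Ddx54, Ddx49 and Ddx28 between -1.07 and -1.04 and Dhx35 (0.69) highest. The spliceosome Sm, LSm, SF3 and SR proteins had 21 of 48 lower and 14 higher (-0.15), from Snrpd2 (-1.34) and Prpf38a (-1.28) to Lsm6 (1.24) and Lsm12 (1.02). Of 15 hnRNP proteins 6 were lower and 0 higher (-0.29), with Hnrnpm at -0.90.

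Factors that bind the 3' ends of mRNAs and microRNA targets leaned the other way. In the list of AU-rich element, Pumilio and microRNA effectors 9 of 23 were higher and 1 lower (median 0.19). After Zfp36 came its paralog Zfp36l1 (1.09), the muscleblind splicing factor Mbnl1 (0.88) and Pum2 (0.68), with Tial1 lower (-0.62). The RNA exosome and CCR4-NOT list had 6 of 21 lower and 4 higher (-0.12), but its deadenylase gene Cnot7 had 12.13, 12.16, 12.33 and 12.10 against 10.54, 10.87, 10.59 and 10.48 with IgG (1.56, SE 0.10). RNA polymerase subunits had 9 of 18 lower and 5 higher (median -0.29, and 7 and 2 with median scaling). Mediator had 9 of 25 lower and 6 higher (-0.05, and 5 and 1 with median scaling). Its shares of 36% lower and 24% higher lay not far from the 28.2% and 29.4% of all genes. The nuclear pore had 6 of 16 lower and 2 higher (-0.17, and 4 and 4 with the Actb gap as a covariate).

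Cytoskeletal RNAs leaned lower. The actin cytoskeleton list had 15 of 35 lower and 5 higher (median -0.29), with Capg (-1.47), the nonmuscle myosin genes Myh10 (-1.42) and Myl6 (-1.35) and alpha-actinin 4 (Actn4, -0.94) lowest, and Arpc1a (0.87) and Arpc5 (0.58) of the ARP2/3 complex higher. With median scaling, 1 gene of the actin cytoskeleton list was higher. Tubulins, counted with the gamma-tubulin complex, had 8 of 13 lower and 1 higher (-0.49), with Tubb4b at -1.18 and Tuba4a at 0.44. Kinesins and dyneins had 19 of 41 lower and 7 higher (-0.26), from the dynactin subunit gene Dctn3 (-1.41) to Kif2a (0.76). With the Actb gap as a covariate, or with median scaling, 2 of the kinesins and dyneins were higher.

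Intraflagellar transport, the train that builds cilia, had 8 of 12 lower and 0 higher (median -0.64), with Ift27 (-1.48), Ift172 (-1.02), Ift122 (-0.99) and Ift22 (-0.92) lowest.

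For the matrix and adhesion lists the share called lower was set against the 28.2% of all genes. It was 47.4% for collagens. For integrins and cadherins it was 38.5%, which is 5 of 13 genes and not far from that of all genes. For matrix glycoproteins and proteoglycans it was 30%, near that of all genes. Of 19 collagens 9 were lower and 2 higher (median -0.12). With the Actb gap as a covariate 6 collagens were lower and 3 higher, and the counts were 8 and 4 without MYF5 replicate 4. Col3a1 had 10.99, 10.10, 10.29 and 10.13 with anti-MYF5, against 12.03, 11.10, 11.48 and 11.13 with IgG (-1.06, SE 0.20), where replicate 1 was the highest array in each group and MYF5 replicate 1 lay just under the lowest IgG array. The basement membrane collagens Col4a1 (0.74) and Col4a5 (0.66) were higher. Matrix glycoproteins and proteoglycans had 9 of 30 lower and 6 higher (-0.17, and 12 and 3 with median scaling), with Timp1 (-1.33) lowest and Mfap5 (0.98) and Lamc1 (0.93) highest. Of 13 integrins and cadherins, with related adhesion molecules, 5 were lower and 2 higher (-0.22). Vcam1, an adhesion molecule that takes part in myoblast fusion, had 10.09, 10.16, 10.06 and 10.13 against 8.87, 8.78, 8.91 and 8.80 with IgG (1.27, SE 0.12), and Ncam1, which rises on differentiating myoblasts, was lower (-0.99).

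Few markers of other cell types passed the detection filter. Tested were 4 for fat, 4 for bone and cartilage, 3 for endothelium, 3 for neurons, liver or epithelium, and 0 for blood. Over all genes, 57.6% were called in either direction. Pparg, a regulator of fat cells that fibroblastic cells also express, was higher (1.19), and the fat droplet protein gene Plin4 was lower (-0.37). The osteocalcin genes Bglap2 (-1.46) and Bglap (-0.95), near copies of each other, were lower, and Sox9 was higher (0.74). Krt14 was lower (-0.61), and of the 3 tested endothelial markers 0 were called.

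**Figure D3:**
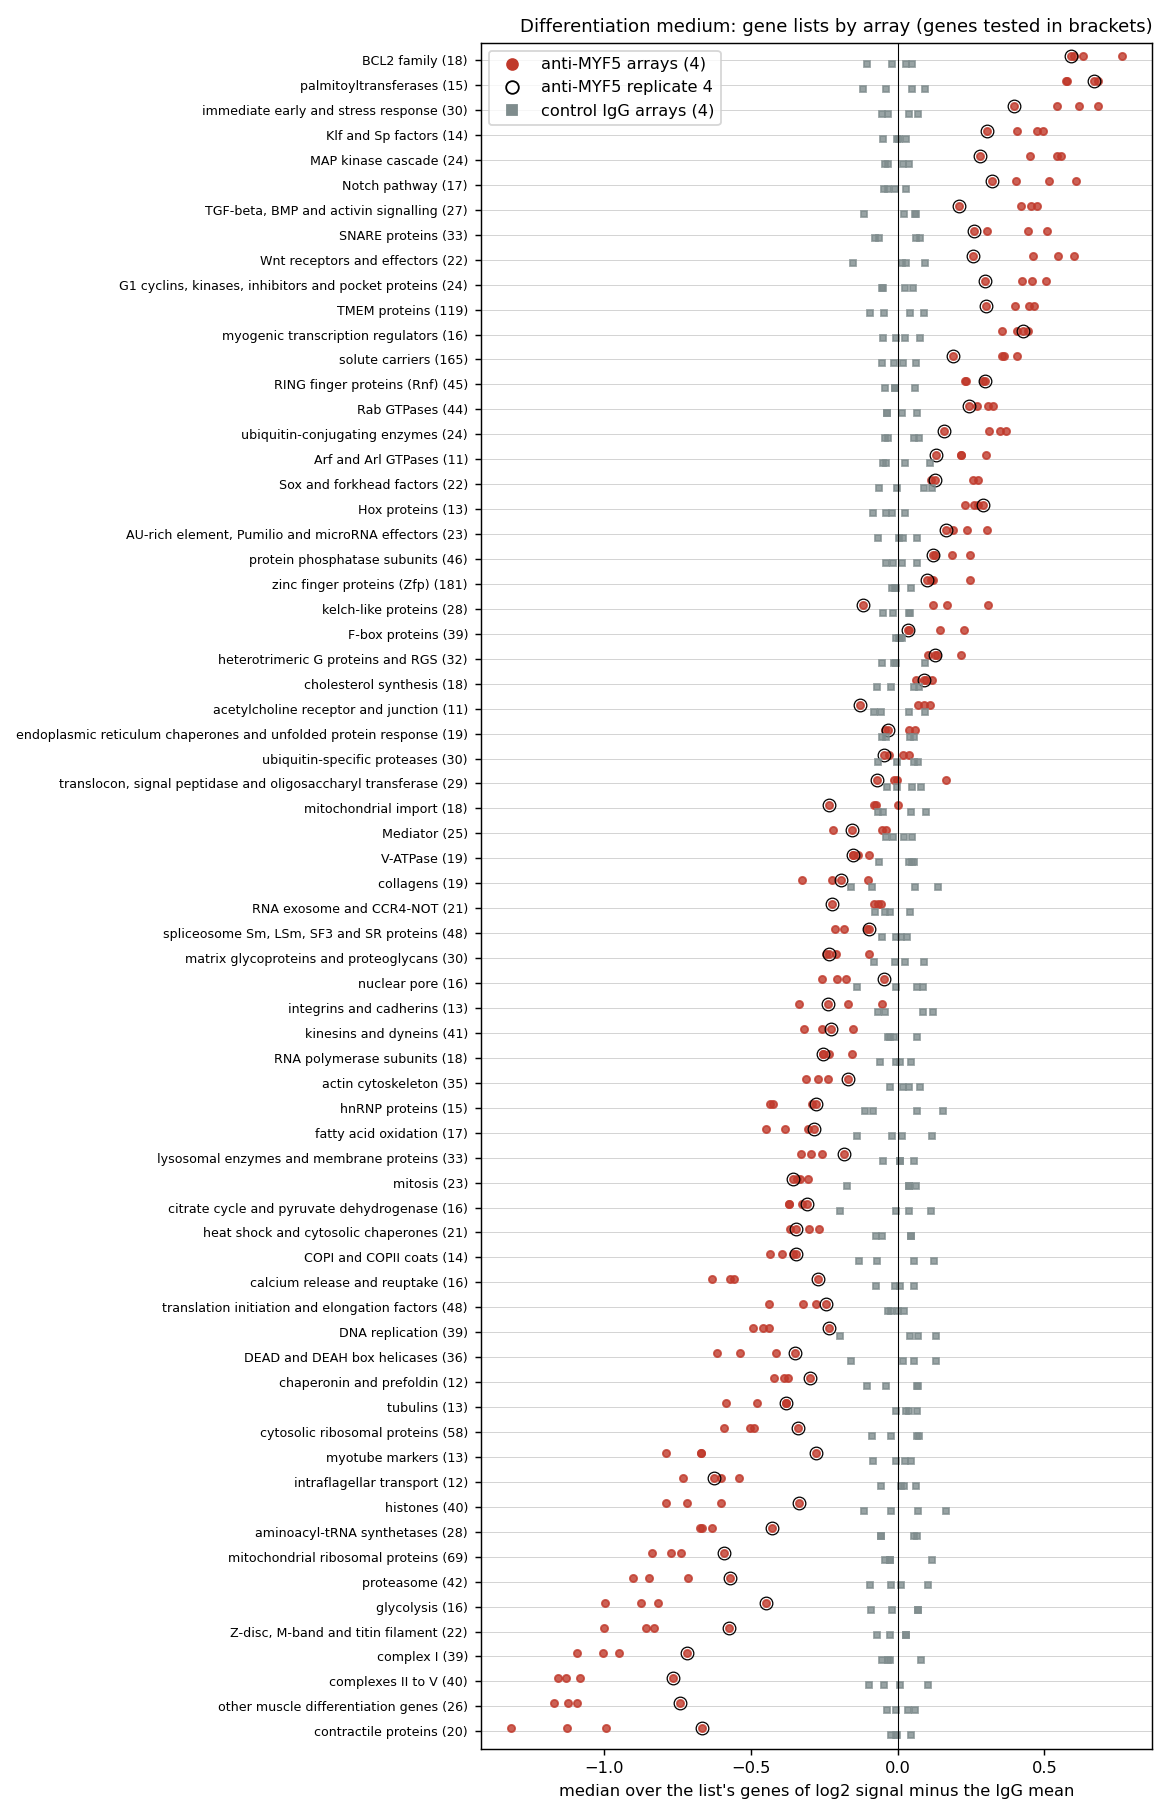
For each gene list with at least 10 tested genes (number in brackets), the median over its genes of the log2 signal minus the mean of the IgG arrays, for each anti-MYF5 array (red; replicate 4 ringed) and each control IgG array (grey squares), ordered by the list's median log2 fold change. The BCL2 family stands highest and the contractile proteins lowest, and replicate 4 is the anti-MYF5 array nearest to IgG in 46 of the 68 lists.

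A small share of genes was called for a difference in recovery between the media. A gene without this call was not thereby shown to be recovered alike in both. The DM minus GM difference in log2 fold change was tested in the same fit, on other arrays for each medium. It was positive for 214 of the 8927 genes (2.40%) and negative for 295 (3.30%). This count moved with the processing, as described below, and with median scaling it was 61 positive and 799 negative probes, against 297 (2.28%) and 428 (3.28%). Of the 425 genes called both for the difference and in DM, 115 were detected on none of the 8 GM arrays, so that their GM value is one of background.

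Those 115 included 89 of the 244 negative differences, and the muscle products were among them. Myl2, Myh6 and Itgb1bp2 were lower in DM (-1.94, -1.69 and -1.56) and detected on no GM array, which makes their GM changes of -0.01, -0.04 and 0.03 uninformative. The contractile list had 6 of its 20 tested genes detected on all 8 GM arrays, and the Z-disc list 8 of 22.

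Genes detected in both media gave a clearer contrast. Chtf18, which loads the sliding clamp of replication, was lower with anti-MYF5 in DM (-0.53) and higher in GM (1.38), a difference of -1.91 (limma adjusted p = 7.3e-06). Actn4 was likewise lower in DM (-0.94) and higher in GM (0.80). Rfc1, a subunit of a related clamp loader, was higher in both but less so in DM (0.54 in DM and 2.15 in GM, difference -1.62). On the positive side, Atrip and Smarcal1, which act at stalled replication forks, and the helicase gene Blm were lower in both media and by less in DM. Atrip changed by -0.51 in DM and by -2.28 in GM, Smarcal1 by -1.12 in DM and -2.85 in GM, and Blm by -0.44 in DM and -2.19 in GM. The histone gene H2ac21 followed (-1.54 in DM and -2.81 in GM).

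Jag1, the Notch ligand, was higher in DM with 7.39, 6.63, 6.93 and 6.43 with anti-MYF5, against 5.57, 5.30, 5.21 and 5.28 with IgG (1.51, SE 0.16). In GM it was detected on 1 of 8 arrays, with a change of 0.10. Tma7 was higher in DM (0.49) and lower in GM (-0.77). For the 6 most positive and 6 most negative genes, which include Myl2, Myh6 and Itgb1bp2, the difference kept its sign under all settings tried on the log2 scale. These genes were chosen for the size of that difference and the settings reuse the same arrays, so the kept sign is no separate evidence. Chtf18 was tested in 17 of the 18 settings, as it failed the filter for detection on all 8 DM arrays. The call ended for Tma7 with median scaling (0.89, limma adjusted p = 0.11) and with no scaling (0.78, limma adjusted p = 0.17), and for H2ac21 with no scaling (0.88, limma adjusted p = 0.072). Calls of opposite direction in the 2 media were made for 32 genes, 4 higher in DM and 28 lower in DM.

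**Figure D4:**
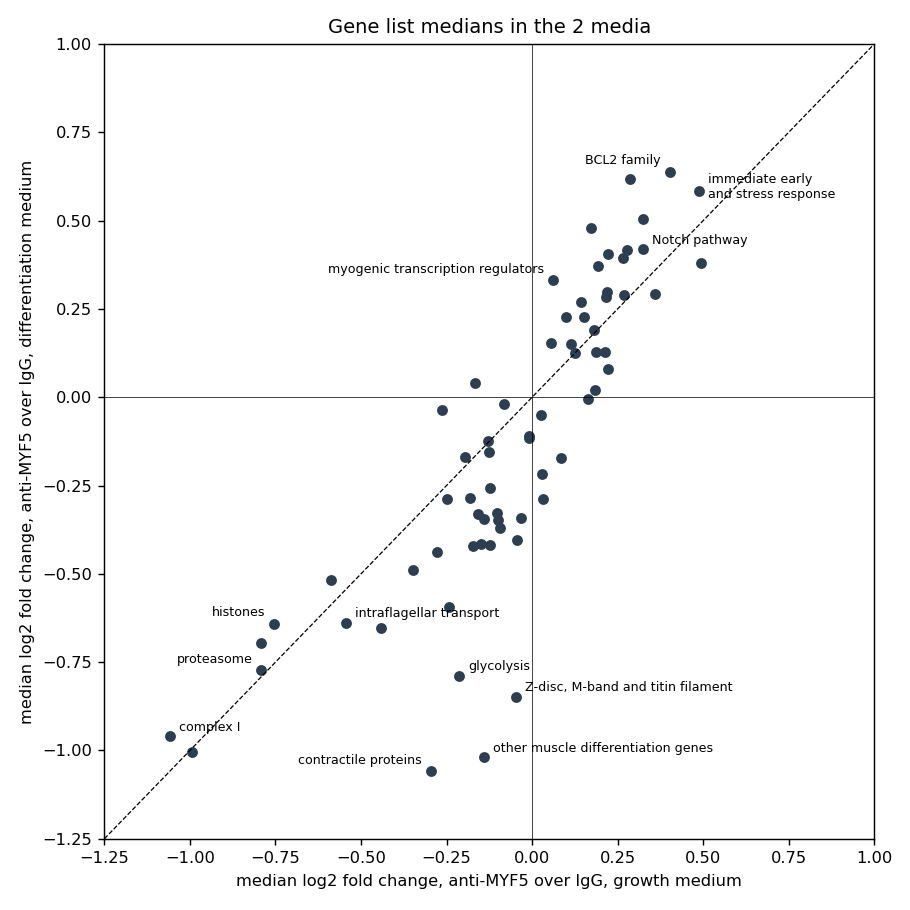
Median log2 fold change of anti-MYF5 over control IgG in DM (vertical axis) and in GM (horizontal axis) for each gene list with at least 10 tested genes, 1 point per list, with the dashed line marking equal values. Most lists lie near the line, and glycolysis and the contractile, Z-disc and other muscle lists lie furthest below it. Further lists lie off it by less, such as calcium release and reuptake (-0.40 in DM and -0.04 in GM) and the actin cytoskeleton (-0.29 and 0.03) below. Palmitoyltransferases (0.62 in DM and 0.29 in GM) lie above. Of the genes of the contractile, Z-disc and other muscle lists, 6 of 20, 8 of 22 and 6 of 26 were detected on all 8 GM arrays.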

How the data were processed

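Per the file headers, each of the 16 arrays had 2 deposited columns over 25697 probes, the intensity of the signal and its detection p-value. They came from GenomeStudio 2011.1, per the submitters' processing notes, and were not normalized between arrays. The deposited series values, a score, equalled the z-score of each array's log10 signal over all probes to within 5e-10 and served as an alternative. Their array medians lay between -0.55 and -0.508.

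Background was corrected by limma's normexp method with controls inferred from the detection p-values (offset 16), and signals were quantile-normalized over the 16 arrays and log2-transformed (limma 3.58.1, R 4.3.3). One linear model over all 16 arrays (lmFit, eBayes with a trend, 12 residual degrees of freedom) gave the DM change and the DM minus GM difference. Groups came from the sample titles. Of the probes, 23978 had 1 gene symbol and 1719 none, from the platform annotation updated through RefSeq (GRCm38.p6, names only). Of the tested probes, 752 had none and were left out of gene counts. A gene stands by its brightest probe over the DM arrays. The precision of every value is limited by 4 arrays per group.

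Members and the 74 gene lists were chosen with earlier results of these data known, so counts by list are descriptions. Named genes were the 15 highest and 15 lowest called genes without overlap, up to 4 called members of each described list in its direction and 2 against it, all probes of Ccnd1, Myf5, Myod1, Myog, Actb and Gapdh, and the 6 most positive and 6 most negative DM minus GM differences. The noncoding genes were named beyond this rule. Deviations of same-numbered arrays correlated at 0.384, 0.433, 0.0197 and 0.263 for numbers 1 to 4. The labels give no shared batch and replicate 3 showed almost no correlation, so the numbers were not taken as pairs. Alternatives covered scaling, background, offset, detection filter, the replicate block, the Actb gap as a covariate, the 8 DM arrays alone, and leaving out each array. Counts by list without MYF5 replicate 4 were added after seeing the data. No probe sequences were used here.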

Additional observations from a re-analysis of the deposited data

Results flagged for a closer look

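In groups of 4 arrays, the highest or lowest value was set apart when its gap to the nearest other array, as a share of the group's range, passed Dixon's critical value, which chance alone gives in about 1 of 20 groups. Among 658 such groups (326 probes of the genes named above and 3 array measures, in each DM group) 42 met this. MYF5 replicate 4 was the array set apart in 22 of them, and in all 22 it lay on the side of its group nearer to IgG.

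That array was above the other MYF5 arrays, in log2 signal, for Myl2 9.41, 2310039H08Rik 7.83, Calr 7.53, Ndufv3 10.98, Mrpl23 9.62, Eno3 12.25, Acaa2 8.43, Rpl19 10.09, Rpl35 12.82, Eef1d 11.02, Aimp2 8.57, Psmc4 11.07, Psmc5 10.56, Psmc3 10.55, Ddx49 6.68, Zfp207 8.04, Actn4 10.37 and Dctn3 10.01. It was below them for Cs 10.76, Foxj2 9.23, Tgfbr3 9.12 and Tma7 7.26. MYF5 replicate 1 was the highest of its group for Zdhhc13 9.94. MYF5 replicate 1 was the lowest of its group for Ddit3 7.87. MYF5 replicate 3 was the lowest of its group for Ube2f 11.58.

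Among the IgG arrays, replicate 1 was above the others for Atp2a2 12.89 and Ncstn 8.87 and below the others for H2ac24 11.29, Nfkbia 7.47 and Mrpl52 10.92. IgG replicate 2 was above the others for Nudt19 10.1, Tfdp1 10.35 and Ncam1 11.67 and below the others for Cct3 11.07, Prpf38a 10.27 and Rpn2 11.85. IgG replicate 4 was below the others for Hbegf 8.16, Lrp4 9.89, Insig1 8.56, Zfp36l1 12.79, Sox8 5.02 and Ccnd1 (ILMN_2669793) 5.91.

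The change with anti-MYF5 differed between DM and GM, by the difference tested in the same fit (limma adjusted p under 0.05), at 57 of the 326 probes, 24 positive and 33 negative. Of the negative ones, 15 were detected on 0 of the 8 GM arrays, so that their GM change could not be measured. Their DM minus GM differences in log2 fold change were Myl2 -1.93, Cox8b -1.58, Myh6 -1.65, Myh4 -1.56, Tnnt3 -1.29, Actn2 -1.49, Myom1 -1.18, Pvalb -1.45, Hrc -1.32, Hspb3 -1.5, Cox6a2 -1.39, Itgb1bp2 -1.59, Pgam2 -1.38, Ppp1r27 -1.19 and Ckm -1.17. One positive difference had no GM detection either, Mfap5 0.98. Among probes detected on at least 1 GM array, the 18 negative differences were Mical1 -0.96, Tcf12 -0.54, Xirp1 -0.94, Cacnb1 -0.95, Cct6a -0.75, Usp19 -1.4, Usp5 -0.72, Ddx54 -0.8, Col3a1 -0.98, Copa -0.82, Ctsb -0.67, Tmem176b -0.68, Gng13 -0.78, Myh10 -1.19, Actn4 -1.75, Actb (ILMN_2698799) -0.54, Chtf18 -1.91 and Rfc1 -1.62. The 23 positive ones were Nudt19 0.7, Tmem128 0.78, Nrn1 0.77, S100a13 0.9, H2ax 0.69, Eif2ak3 1.07, Ndufa3 0.77, Mrpl52 0.67, Rpl28 0.6, Ssr3 0.54, Vamp8 0.65, Slc35b3 1.04, Tcf7l2 0.82, Fzd6 0.96, Jag1 1.41, Vcam1 0.68, Sox9 0.79, Gapdh (ILMN_1377924) 0.55, Atrip 1.77, Blm 1.75, Smarcal1 1.73, H2ac21 1.27 and Tma7 1.25.

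Some of the positive differences belong to genes lower in both media, such as S100a13 (-1.69 in DM and -2.59 in GM), and others to genes whose change in GM was small, such as Eif2ak3 (1.25 in DM and 0.18 in GM) and Sox9 (0.74 and -0.06). Usp19 was lower in DM (-1.38) with a change of 0.02 in GM. These counts move with the scaling, as given next.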

How the results depend on the processing

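The counts of genes called lower stayed within 1.5 times of the main count under all alternatives run, and of the 68 lists with at least 10 tested genes 6 moved across the median of all genes in at least 1 setting (endoplasmic reticulum chaperones, Mediator, acetylcholine receptor, translocon, mitochondrial import and ubiquitin-specific proteases), each within 0.07 of it in the main setting. The size of the list medians, relative to the median of all genes, was less steady. With the Actb gap as a covariate, 32 of the 68 moved by at least the SD of that list's median between arrays of a DM group. With no background correction 19 did. Leaving out 1 array at a time gave 3374 to 3763 probes higher and 3339 to 3588 lower (2379 to 2680 and 2333 to 2472 genes). Fewer were higher with median scaling (2417 probes, 1661 genes) and with no scaling (2207 and 1507). Of called probes 50.5% were higher in the main setting, against 40.8% with median scaling and 42.4% with no scaling. The DM minus GM difference moved most. Against 297 positive and 428 negative probes, it gave 61 and 799 with median scaling, 29 and 1097 with no scaling, 962 negative with the deposited z-scores, 530 and 679 with the Actb gap in the fit, 869 and 1055 with the replicate block, and 153 to 426 and 245 to 601 without 1 array. The Ccnd1 probes ILMN_1221503, ILMN_2601471 and ILMN_2669793 differed by 0.42, 0.35 and 0.63 with median scaling and by 0.44, 0.37 and 0.65 with no scaling (limma adjusted p = 0.086, 0.16 and 0.058), and ILMN_2669793 by 0.39 to 0.93 without 1 array and by 0.23 with the Actb gap. With the Actb gap, Sar1a turned to -0.066, and ILMN_2588055 and ILMN_2846865 of Actb to -0.75 and -0.60. The value of ILMN_2588055 follows from the gap being ILMN_2698799 minus ILMN_2588055, which gives these 2 probes the same change. For Sar1a and ILMN_2846865 the cause was not tested. The replicate block called 4196 probes higher and 4028 lower, 6 of 8 arrays correlated best with the array of their own number, and the block ended no call of the 326 named probes. The Actb gap ended 21 of these calls and turned 2, those of ILMN_2588055 and ILMN_2846865. Median scaling ended 17 and no scaling 24. Leaving out 1 array ended 3 to 10, at 15 probes in all: 3 of Actb, 1 of Ccnd1, and those of Apc, Bag2, Chrng, Cs, Fosl1, Pfdn1, Plin4, Psmd9, Pum2, Tma7 and Xist.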
